A study of Lens culinaris with 20 samples.

Results

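Flower buds and stem of lentil (Lens culinaris), a grain legume, were compared by small RNA sequencing, with 3 libraries of each tissue out of 20 libraries of 7 tissues. All 1464 mature miRNA features of the deposited table entered the comparison, each feature being 1 mature sequence. Of these, 907 were above 0 in at least 1 of the 6 libraries and 152 in all 6. The labels give a tissue for each library but no cultivar, age or treatment, so the groups are known only as flower buds and stem of this species. RNA was extracted from pooled samples, per the labels, which leave unsaid whether the 3 libraries of each tissue stem from different plants or pools. The p-values therefore rest on library-to-library spread that may be purely technical. The table holds no mRNA, so neither tissue label could be checked against defining marker genes. The miR319 family had its highest mean levels of the 7 tissues in these, and the comparison asks what else tells them apart.

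Plant miRNAs are cut by DICER-LIKE1 from hairpin precursors and guide an Argonaute protein to matching mRNAs, which are cleaved or repressed. Many conserved families act on transcription factors that set the identity of meristems, organs and vascular tissue, such as HD-ZIP III factors for miR166, GAMYB-type MYB factors for miR159, TCP factors for miR319, NAC factors for miR164 and growth-regulating factors for miR396. Others act on nutrient transporters and copper proteins, or on the miRNA pathway itself. These targets are background knowledge from other plants and were not measured here.

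The mature sequences below carry the differences described in the following paragraphs. They are given 5′ to 3′ as DNA letters, with the seed (bases 2 to 8) in capitals. A prefix names the species of the closest known miRNA (ath, Arabidopsis; mtr, Medicago truncatula; gma, soybean), and the suffixes are those of the table. The first set shows the most abundant members that differed or that head their family.
mtr-miR166a: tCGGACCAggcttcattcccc
mtr-miR166e-5p: gGAATGTTggctggctcgagg
mtr-miR159a: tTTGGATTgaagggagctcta
ath-miR164a: tGGAGAAGcagggcacgtgca
gma-miR319f_1ss17TC: tTGGACTGaaggggcccctt
mtr-miR319a-3p_R+1: tTGGACTGaagggagctccct
ath-miR319c_L+1R-1: tTTGGACTgaagggagctcct
gma-miR4414a-3p_L+1_1ss10TA: aTCCAACGaagcgggagctgc
The second set shows close relatives within a family whose levels moved apart.
mtr-miR156e: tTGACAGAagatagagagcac
gma-miR156b_L+1R-1: tTGACAGAagagagagagcac
ath-miR156a-5p_L+1: tTGACAGAagagagtgagcac
gma-miR396a-5p: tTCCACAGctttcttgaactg
mtr-miR396a-5p: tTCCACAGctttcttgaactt
mtr-miR396a-3p: gCTCAAGAaagctgtgggaga
ath-miR170-5p: tATTGGCCtggttcactcaga
mtr-miR171e-5p: cGATGTTGgtgaggttcaatc
The third set shows features listed in flower buds and at 0 in the 3 stem libraries.
ath-miR167a-3p_L+1_2ss10TG11C-: aGATCATGtggcagtttcacc
mtr-miR319c-5p_L-1R+1: gAGTTCCTtgcagcccaaagc
ppe-miR858_1ss19TC: cTCGTTGTctgttcgaccctg
ath-miR397a: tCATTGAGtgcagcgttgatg

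Reads assigned to features totalled 197929, 538868 and 600443 in flower buds 1 to 3 and 203163, 756169 and 656051 in stem 1 to 3, so the first library of each tissue was the shallowest. Levels are given as CPM, reads scaled to a common library size after TMM adjustment, and a value of 0 in the table stands for fewer than about 5 reads, which equalled 8.62 to 20.5 CPM in stem and 11.3 to 23.8 CPM in flower buds. Reads shared among entries can fall below this limit, and 219 of the 2310 values above 0 in these libraries did, down to 2.5 reads. A sequence that stood in several entries kept the reads of 1, so its level is understated. The summed level is given beside each mean level printed below that summing the entries moved by more than 1.5 times. Spearman correlations across the 323 tested features were 0.911 to 0.957 between flower bud libraries, 0.878 to 0.955 between stem libraries and 0.687 to 0.768 between the tissues, as a description, since features are not independent. Of these features, 41 were at 0 in all 6 libraries, since all 20 libraries set the filter. The 10 most abundant features took 73.8% to 80.2% of the reads in flower buds and 70.1% to 72.7% in stem.

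Flower buds were richest in miR166, the HD-ZIP III regulator, which took 52.2% ± 6.71 of all reads there (SD, n = 3) and 14.97% ± 2.01 in stem. Stem carried more of the MYB regulator miR159 (21.8% ± 1.62 against 3.89% ± 0.65) and of the TCP regulator miR319 (15.6% ± 2.96 against 6.03% ± 1.52). In each of these 3 families the 2 tissues' libraries did not overlap. The exact two-sided permutation test of 3 against 3 libraries gave p = 0.1 for each share, the smallest it can give, and 0.16 after Benjamini-Hochberg adjustment over the 8 shares compared. In these bulk samples, fewer cells of a type and less of a miRNA per cell cannot be told apart.

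Across all tested families, the tissues differed in 28 of 54. By edgeR's quasi-likelihood test with an adjusted p under 0.05 and a log2 fold change of at least 1, 12 families (22.2%) were higher and 16 (29.6%) lower in flower buds than in stem. For 12 families (22.2%) every flower bud library lay above every stem library, and for 15 (27.8%) the reverse held. Of the 323 tested features, 44 (13.6%) were called higher and 53 (16.4%) lower. Among the same features, 68 (21.1%) had all flower bud libraries above all stem libraries and 76 (23.5%) all stem libraries above. The median log2 fold change was -0.20 over families and 0.00 over features. The 323 features include 41 at 0 in all 6 libraries, which have a log2 fold change of 0. The feature median falls among them, so it does not measure the balance between the tissues, and they count in the percentages of features above. The balance of higher and lower calls moved with the scaling. The authors' own factors shifted the scaling by a mean log2 of 0.43 in favour of flower buds, and single log2 fold changes moved by differing amounts. With these factors, 15 families were higher and 10 lower, and 60 features were higher and 47 lower. No called family or feature was called in the opposite direction in any alternative tried, and 14 of the 28 families (6 higher, 8 lower) kept their call in all 18 alternatives. These 14 were miR160, miR166, miR167, miR408, miR5211 and miR7539 on the higher side and miR159, miR164, miR396, miR399, miR4414, miR5204, miR5232 and miR530 on the lower side.

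**Figure D1:**
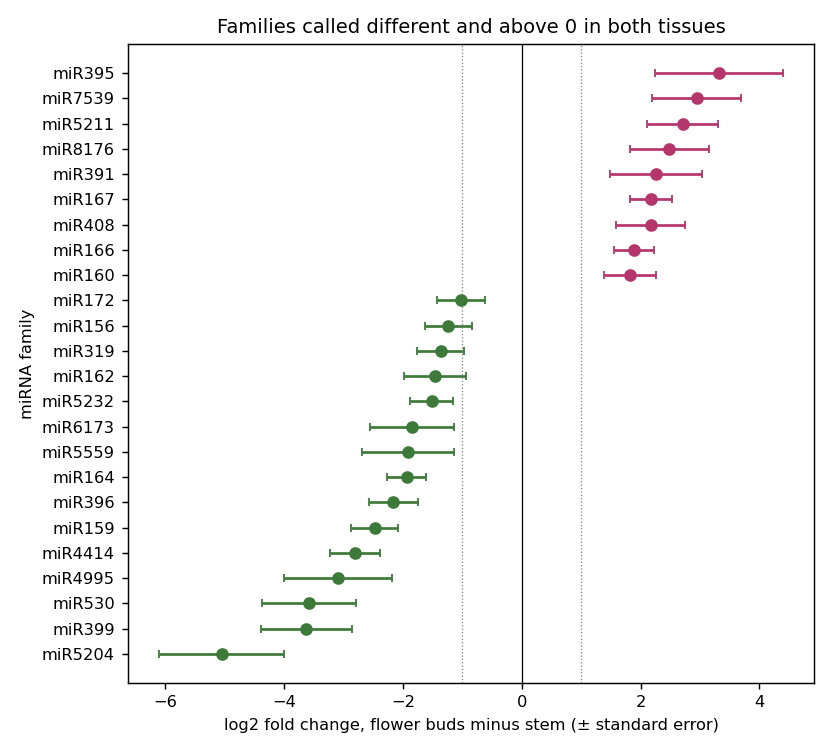
Log2 fold changes (flower buds minus stem, x axis, ± standard error) of the 24 called families that were above 0 in both tissues, with dotted lines at the threshold of 1 in either direction. Values run from -5.05 for miR5204 to 3.33 for miR395, and miR172, at -1.02, lies nearest to the threshold.

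Among regulators of developmental transcription factors, 1 of 8 tested families rose in flower buds (miR166), 4 fell (miR159, miR164, miR319 and miR396), and miR169, miR171 and miR394 did not pass. Over all tested families, 22.2% were higher and 29.6% lower. The median log2 fold change of the 8 families was -1.17. miR166 stood at 421990, 657115 and 834025 CPM in the flower bud libraries and at 141891, 229002 and 147413 CPM in stem. Its lowest flower bud library lay above its highest stem library, and the log2 fold change was 1.88 ± 0.34 (adjusted p = 8.91e-05). Flower buds had the highest mean miR166 level of the 7 tissues and stem the second lowest.

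Most of miR166 was mtr-miR166a, the 3p strand that pairs with HD-ZIP III mRNAs. It averaged 519568 ± 152571 CPM in flower buds and 117585 ± 34713 CPM in stem, a log2 fold change of 2.14 ± 0.30 (adjusted p = 2.89e-05). The opposite strand mtr-miR166e-5p differed more, with 13635, 36332 and 44720 CPM against 2468, 3843 and 3986 CPM (log2 fold change 3.20 ± 0.54, adjusted p = 0.000216). Of the 16 tested members with counts of their own, 7 were higher and 1 was lower in flower buds, against 13.6% and 16.4% of all tested features. Less abundant members that rose were ath-miR166a-3p_1ss21CA (8265 ± 382 against 1994 ± 590 CPM, 2.05 ± 0.51, adjusted p = 0.00533) and aly-miR166g-5p_2ss5TC11TC (4788 ± 2229 against 1385 ± 511 CPM, 1.79 ± 0.50, adjusted p = 0.0102). A form shifted by 2 bases, which the table lists with the same counts as ath-miR166a-3p_L+2R-2_2 and ath-miR166a-3p_L+2R-2_1, overlapped between the tissues (65462 ± 34027 against 42765 ± 12675 CPM, log2 fold change 0.61 ± 0.41) and did not pass.

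miR159 showed the opposite order. It held 42201, 48727 and 45907 CPM in flower buds and 175296, 319081 and 267486 CPM in stem (log2 fold change -2.48 ± 0.39, adjusted p = 3.62e-05). The flower bud libraries lay close together and far under every stem library. Stem had the highest and flower buds the lowest mean of the 7 tissues. A single member, mtr-miR159a, made up nearly all of it, with 44098 ± 2937 and 248688 ± 71142 CPM.

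miR164, which restrains NAC genes that separate organs, measured 31290, 28140 and 29729 CPM in flower buds and 72571, 145202 and 124643 CPM in stem. The groups did not overlap, and the log2 fold change was -1.94 ± 0.32 (adjusted p = 3.62e-05). Its main member ath-miR164a had 25808 ± 1598 and 107159 ± 35201 CPM (-2.05 ± 0.30, adjusted p = 5.92e-05). miR396, a brake on growth-regulating factors, measured 17280, 15651 and 14399 CPM in flower buds and 38187, 89221 and 84553 CPM in stem, again without overlap (-2.16 ± 0.41, adjusted p = 0.000164). Like miR159, miR396 had its highest tissue mean in stem and its lowest in flower buds. miR169 (NF-YA factors), miR171 (GRAS factors of the HAM group) and miR394 (the F-box gene LCR) overlapped between the tissues, with log2 fold changes of -0.35 ± 0.61, 0.07 ± 0.39 and -0.99 ± 0.48. Only without stem 1 did miR394 pass (-1.28, adjusted p = 0.0284).

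**Figure D2:**
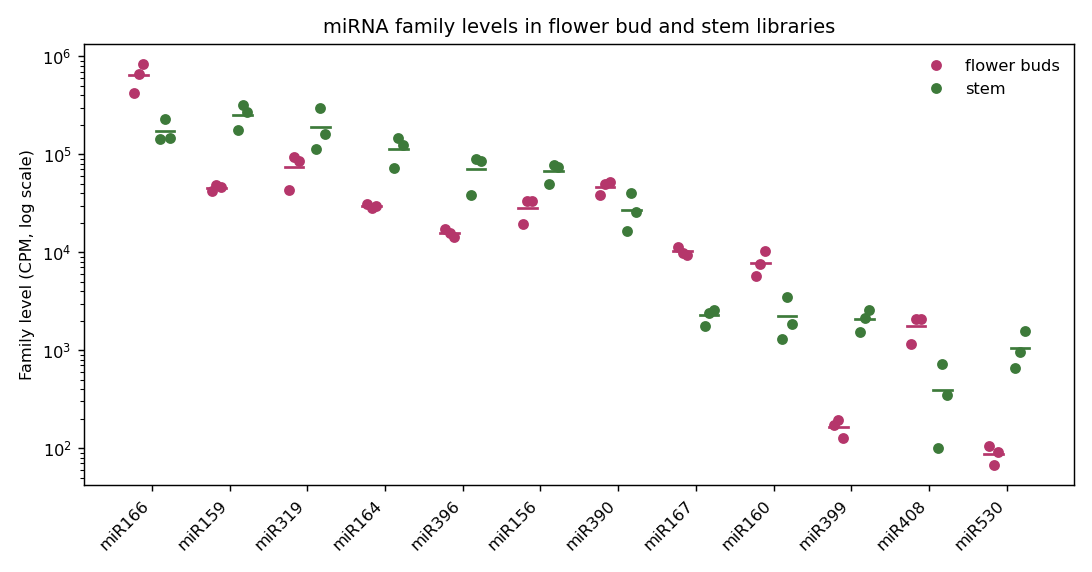
Level of 12 families in each library (y axis, CPM, log scale), with flower buds in magenta, stem in green and a line at the mean of 3 libraries. miR166, miR167, miR160 and miR408 lie higher in every flower bud library than in any stem library, miR390 overlaps, and the other 7 families lie higher in every stem library.

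miR319, the TCP regulator of leaf and petal growth, measured 43223, 93042 and 84549 CPM in flower buds and 114235, 294134 and 159960 CPM in stem. Stem ranked first of the 7 tissues and flower buds second. The flower bud mean of 73605 ± 26652 CPM lay within its own spread of the flowers mean of 68481 ± 1042 CPM (n = 2). The log2 fold change was -1.36 ± 0.39 (adjusted p = 0.00575), but without stem 2, the library with most miR319, it was -0.84 (adjusted p = 0.0975). It also missed the threshold of 1 when the authors' factors were used (-0.93), when all table entries of a sequence were summed (-0.97), with features lying unchanged in their precursor (-0.84) and with ties rounded to even (-0.95).

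The members of miR319 did not share 1 pattern. The 20 nt form gma-miR319f_1ss17TC measured 29184, 65947 and 57591 CPM in flower buds and 96514, 251619 and 129772 CPM in stem. All stem libraries were higher, with a log2 fold change of -1.65 ± 0.47 (adjusted p = 0.0115), which became -1.10 without stem 2 (adjusted p = 0.119), -1.42 without flower buds 3 (adjusted p = 0.0652) and -1.22 with ties rounded to even (adjusted p = 0.0646). Its share of the family was 67.5% to 70.9% in flower buds and 81.1% to 85.5% in stem. The 21 nt form mtr-miR319a-3p_R+1 has the same seed and the same first 13 bases. It measured 20026 ± 6622 CPM in flower buds and 26877 ± 11229 CPM in stem, overlapped between the tissues and did not pass (-0.42 ± 0.37, adjusted p = 0.446). Reads of this 21 nt form were split over 3 entries of the table, and it had 54516 and 67822 CPM with them summed. With the entries summed, gma-miR319f_1ss17TC made up 44.7% of the family in flower buds and 65.1% in stem. The 21 nt form then made up 52.6% and 33.3%, so which form led in flower buds depended on this choice.

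Rarer miR319 members moved both ways. gma-miR319d was lower in flower buds (449 ± 126 against 1946 ± 901 CPM, log2 fold change -2.11 ± 0.45, adjusted p = 0.00191). ath-miR319c_L+1R-1 was higher, with 720, 1731 and 1649 CPM in flower buds and 51.2, 107 and 70.7 CPM in stem (4.13 ± 0.80, adjusted p = 0.00108). Its 1-base shift gives it the seed TTGGACT instead of the TGGACTG of the 2 abundant members. From mtr-miR159a it differed by C7T, C20T and T21A, with positions counted from its own 5′ end and the base of mtr-miR159a given last. Members that did not pass were mtr-miR319a-5p_L-1 (78.2 ± 6.64 against 305 ± 224 CPM), ath-miR319a_1ss21TA (348 ± 48.6 against 526 ± 72.2 CPM, or 622 and 902 CPM with entries summed) and rco-miR319a_R+1_1ss21TC (15.6 ± 14.5 against 193 ± 14.7 CPM, adjusted p = 0.0684). The last of these lay higher in every stem library and passed in 3 alternatives. The 5p strand mtr-miR319c-5p_L-1R+1 measured 71.3, 152 and 216 CPM in flower buds and was listed at 0 in all 3 stem libraries, which makes it at least 11.2-fold higher against 5 reads per library.

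**Figure D3:**
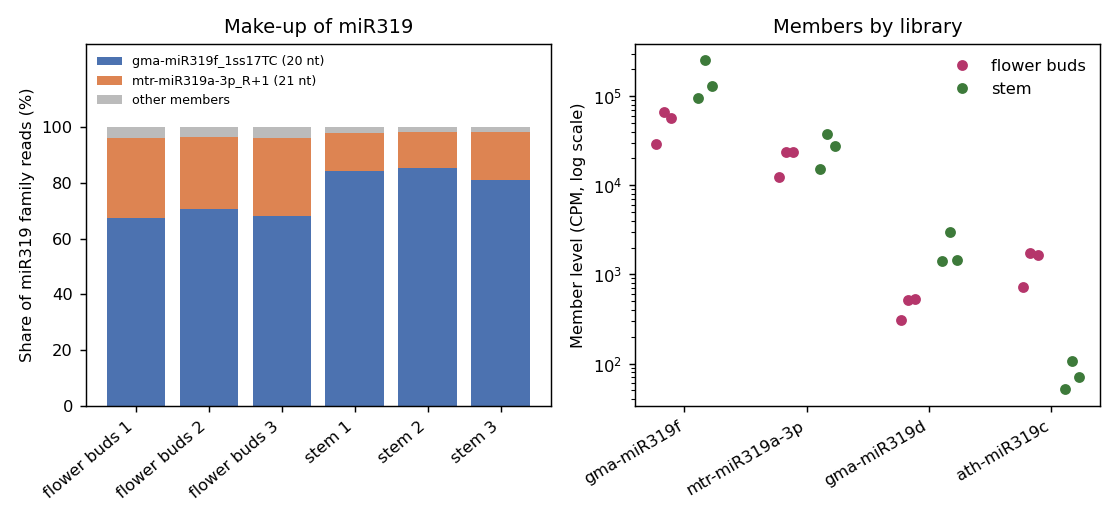
Left, share of miR319 family reads (%) in each library taken by the 20 nt gma-miR319f_1ss17TC, the 21 nt mtr-miR319a-3p_R+1 and other members. These shares keep 1 of 3 entries of the 21 nt form, which led in flower buds (52.6% against 44.7%) with entries summed. Right, CPM (log scale) of 4 members in the 3 libraries of each tissue: gma-miR319f and gma-miR319d lie lower in flower buds, mtr-miR319a-3p overlaps and ath-miR319c lies higher.

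The legume family miR4414 was also lower in flower buds. Its feature gma-miR4414a-3p_L+1_1ss10TA lies at base 6 of the same 71-base listed precursor in which gma-miR319f_1ss17TC lies at base 49, so the table places them on opposite arms of 1 hairpin. It measured 1649, 1617 and 1784 CPM in flower buds and 6366, 16161 and 12778 CPM in stem. The family's log2 fold change was -2.81 ± 0.43 (adjusted p = 3.49e-05), and the stem mean was the highest of the 7 tissues. The log2 ratio of the 5p to the 3p feature was -5.35 to -4.15 in flower buds and -3.96 to -3.34 in stem, without overlap.

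Of the 5 tested families linked to auxin signalling or to the tasiRNAs that act on auxin response factors, 2 rose in flower buds, 1 fell and 2 did not pass, with a median log2 fold change of 0.78. For comparison, 22.2% of all tested families were higher and 29.6% lower. miR160, which targets repressing auxin response factors, measured 5708, 7612 and 10211 CPM in flower buds and 1295, 3480 and 1856 CPM in stem (1.83 ± 0.44, adjusted p = 0.00136). miR167, which targets ARF6 and ARF8, measured 11444, 9885 and 9305 CPM against 1783, 2418 and 2590 CPM (2.17 ± 0.36, adjusted p = 3.62e-05). Neither family overlapped between the tissues, and stem had the lowest mean of the 7 tissues for both. miR164, given above, was the family that fell. miR390, the trigger of TAS3 tasiRNAs, reached 46699 ± 7360 CPM in flower buds and 27272 ± 11760 CPM in stem but overlapped, and its log2 fold change of 0.78 ± 0.33 was under 1 (adjusted p = 0.0475). It passed in 7 of the 18 alternatives, with log2 fold changes of 1.02 to 1.29. miR393, which targets the auxin receptors, stood at 402 ± 11.7 and 437 ± 277 CPM and did not pass.

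Several miR167 forms contributed. The 22 nt ath-miR167d_1ss22GA had 4483 ± 1255 CPM in flower buds and 1191 ± 100.8 CPM in stem (1.91 ± 0.40, adjusted p = 0.00186). The 22 nt ath-miR167a-5p_R+1_1ss21AT differed more, at 2611 ± 584 against 270 ± 82.9 CPM (3.27 ± 0.42, adjusted p = 2.64e-05), as did its 19 nt relative ath-miR167a-5p_R-2 (3.43 ± 0.61, adjusted p = 0.000388), whose log2 fold change was 4.09 without stem 2. With entries summed, these forms had 4579 and 466 CPM (ath-miR167a-5p_R+1_1ss21AT) and 976 and 79.0 CPM (ath-miR167a-5p_R-2). These 3 called features share the seed GAAGCTG. The 21 nt ath-miR167a-5p has the same seed but overlapped between the tissues and did not pass (221 ± 32.9 against 116 ± 88.9 CPM, 0.91 ± 0.58, adjusted p = 0.264). Of 8 tested miR167 members, 5 were called higher and 0 lower, against 13.6% and 16.4% of all tested features.

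Both families of the juvenile-to-adult phase change were called lower in flower buds, against 29.6% of all tested families. Their median log2 fold change was -1.13. miR156, which targets SPL factors, measured 19338, 33254 and 33005 CPM in flower buds and 49801, 77079 and 74693 CPM in stem (-1.24 ± 0.39, adjusted p = 0.0108). The groups did not overlap, but the call was lost in 4 of the 18 alternatives. The log2 fold change was -0.82 with the authors' factors, -0.74 with features lying unchanged in their precursor, -0.90 with ties rounded to even, and -1.07 without stem 2 (adjusted p = 0.0510). miR172, which targets AP2-type factors, measured 3053, 6383 and 6970 CPM against 5534, 14732 and 13093 CPM. Its libraries overlapped, its log2 fold change of -1.02 ± 0.40 (adjusted p = 0.0330) lay at the threshold, and the call was lost in 14 of the 18 alternatives, including those without flower buds 1, 2 or 3 or without stem 2 or 3 (-0.95 to -0.65). Within it, 2 of 6 tested members were called lower and 0 higher, against 16.4% and 13.6% of all tested features. ath-miR172c_1ss7TC fell most, with 106 ± 22.2 CPM in flower buds and 2294 ± 985 CPM in stem (-4.43 ± 0.68, adjusted p = 0.000216). ath-miR172a_1ss21TG had 559 ± 282 against 2687 ± 1161 CPM (1027 and 4514 CPM with entries summed; -2.26 ± 0.50, adjusted p = 0.00272). The most abundant member, ath-miR172a, overlapped and did not pass (4099 ± 1879 against 4900 ± 2339 CPM, -0.26 ± 0.45).

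The miR156 family total combined members that moved apart. mtr-miR156e measured 14015, 25930 and 25895 CPM in flower buds and 5448, 7799 and 6393 CPM in stem, higher in every flower bud library (1.75 ± 0.38, adjusted p = 0.00256). gma-miR156b_L+1R-1 measured 1050, 973 and 1013 CPM against 6776, 8076 and 9066 CPM, lower in every flower bud library (-2.98 ± 0.47, adjusted p = 0.000123). The latter differs from mtr-miR156e by the single substitution G12T, counted from its 5′ end with the base of mtr-miR156e last, and shares its seed TGACAGA. ath-miR156a-5p_L+1, which differs from mtr-miR156e by G12T and T15A, was lower in flower buds, at 1712 ± 439 against 17224 ± 3595 CPM (-3.33 ± 0.46, adjusted p = 2.89e-05). The 20 nt mtr-miR156b-5p, at 30842 ± 8009 CPM the most abundant falling miR156 member in stem, had 2632 ± 820 CPM in flower buds (52815 and 4774 CPM with its 2 entries summed; -3.55 ± 0.46, adjusted p = 2.64e-05). The 3p strand ath-miR157c-3p_R+1_2ss9TG20CT was higher in flower buds (263 ± 70.4 against 37.5 ± 14.0 CPM, 2.82 ± 0.76, adjusted p = 0.0084). Of 20 tested miR156 members, 3 were called higher and 9 lower, against 13.6% and 16.4% of all tested features. The third of the higher members, csi-miR156i-5p, was rare, at 90.3, 31.7 and 21.6 CPM in flower buds and 0 in stem.

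In miR396, 1 abundant strand did not fall with the rest. gma-miR396a-5p had 413, 991 and 1257 CPM in flower buds and 9673, 39207 and 45387 CPM in stem (-5.14 ± 0.63, adjusted p = 2.29e-05). Every stem library was far higher. mtr-miR396a-5p, which differs from it by G21T (counted from the 5′ end of gma-miR396a-5p), fell less, from 15185 ± 5876 to 2337 ± 107 CPM (-2.70 ± 0.53, adjusted p = 0.00103). The strand gma-miR396a-3p_L+1 stood at 1193, 551 and 410 CPM in flower buds and 14442, 22534 and 15137 CPM in stem (-4.60 ± 0.73, adjusted p = 0.000123), and at -5.27 without flower buds 1. The rarer 22 nt form ath-miR396b-5p_R+1 also fell (29.7 ± 5.20 against 649 ± 174 CPM, -4.42 ± 1.11, adjusted p = 0.00548). In contrast, mtr-miR396a-3p had 13145, 11690 and 10430 CPM in flower buds and 5128, 7468 and 4890 CPM in stem. Its flower bud libraries were all higher, with a log2 fold change of 1.01 ± 0.39 that did not pass (adjusted p = 0.0554). In flower buds this 3p strand made the larger part of the family mean of 15777 ± 1445 CPM.

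In miR171 the members moved apart while the total overlapped. ath-miR170-5p, a 5p strand, measured 1088, 2289 and 2583 CPM in flower buds and 10.2, 28.6 and 11.2 CPM in stem, with means of 3615 and 27.5 CPM when its 2 entries were summed. It had the largest log2 fold change among called features above 0 in all 6 libraries, 6.76 ± 0.99 (adjusted p = 5.92e-05) and 7.38 without stem 2. Another 5p strand, mtr-miR171e-5p, was lower in flower buds (60.4 ± 25.98 against 840 ± 211 CPM, -3.82 ± 0.68, adjusted p = 0.000388), as was the GRAS-pairing gma-miR171k-3p (1028 ± 210 against 3392 ± 1888 CPM, -1.72 ± 0.42, adjusted p = 0.00444). A 3p relative with the same seed TGAGCCG, mtr-MIR171b-p3_1ss20TC, went the other way. It was higher in every flower bud library but did not pass (2047 ± 76.3 against 962 ± 413 CPM, 1.09 ± 0.44, adjusted p = 0.0635). Members called both ways occurred in 5 of 33 families with at least 2 distinct tested members, namely miR156, miR166, miR169, miR171 and miR319. Across all tested features, 13.6% were called higher and 16.4% lower.

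**Figure D4:**
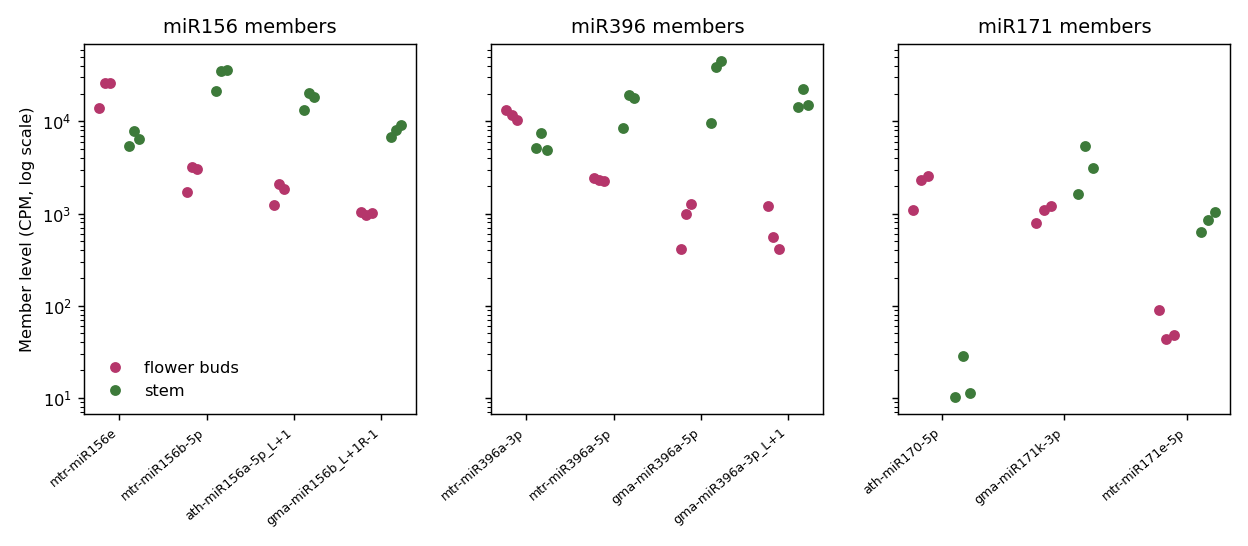
Levels (CPM, log scale) of members of miR156, miR396 and miR171 in the 3 libraries of each tissue, with flower buds in magenta and stem in green. mtr-miR156e, mtr-miR396a-3p and ath-miR170-5p lie higher in flower buds, while their relatives shown beside them lie lower.

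The balance of the 2 arms could be read for 24 precursors with at least 5 reads of both arms in all 6 libraries. The log2 ratio of 5p to 3p reads was higher in every stem library than in any flower bud library for 8 precursors, the reverse held for 4, and 12 overlapped. For the levels of all tested features, 23.5% had every stem library above and 21.1% every flower bud library above. Among the overlapping precursors, ath-miR166a-3p_L+2R-2_1 and ath-miR166a-3p_L+2R-2_2 have the same counts, so their ratios share the 3p reads. The widest gap was that of mtr-miR396a, at -2.42 to -2.21 in flower buds, where the 3p strand led, and 0.72 to 1.88 in stem, where the 5p strand led. miR162 moved the other way. Its 3p strand gma-miR162a_R+1 had 1304 ± 457 CPM in flower buds and 5563 ± 1968 CPM in stem (-2.09 ± 0.53, adjusted p = 0.00548), while its 5p strand gma-MIR162c-p5 had 1010 ± 551 and 692 ± 229 CPM and did not pass. The ratio was -0.74 to -0.16 in flower buds and -3.06 to -2.89 in stem. These are descriptions without a test.

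Of 3 families tied to copper, 2 were higher in flower buds and 1 did not pass, against 22.2% higher among all tested families. Their median log2 fold change was 2.17, or 1.75 with miR397 set to its lower bound. miR408, which targets plantacyanin, measured 1167, 2071 and 2063 CPM against 100, 719 and 350 CPM (2.17 ± 0.58, adjusted p = 0.00318), and 3.09 without stem 2. Its means were 3194 and 636 CPM with entries summed. Flower buds had its highest mean of the 7 tissues. miR397, which targets laccases, was rare, at 23.8, 65.8 and 43.1 CPM in flower buds and 0 in stem, at least 3.37-fold higher. miR398, which targets copper superoxide dismutases, was abundant but uneven, at 104087, 56203 and 62091 CPM in flower buds and 15160, 60235 and 30746 CPM in stem. It overlapped and did not pass (1.07 ± 0.59, adjusted p = 0.135), though it did in 5 of the 18 alternatives. The larger part was the 5p strand mtr-miR398a-5p_L-1R+1_1ss8CA, at 73596, 30164 and 34802 CPM in flower buds and 11265, 34117 and 20930 CPM in stem. The 3p strand ath-miR398a-3p_L+1R-1 had 30068, 25732 and 26962 CPM in flower buds and 3884, 25924 and 9737 CPM in stem. Both strands overlapped and did not pass.

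Of 2 nutrient families, 1 fell and 1 rose in flower buds (median log2 fold change -0.15), against 29.6% and 22.2% of all tested families. miR399, which targets the PHO2 ubiquitin conjugase of phosphate homeostasis, measured 173, 196 and 127 CPM in flower buds and 1543, 2110 and 2567 CPM in stem (-3.63 ± 0.77, adjusted p = 0.00051). Stem had the highest mean of the 7 tissues. Its members mtr-miR399b (-3.92 ± 0.69, adjusted p = 0.000728) and ath-miR399b (-3.62 ± 0.86, adjusted p = 0.00412) fell alike and share the seed GCCAAAG. miR395, which targets ATP sulfurylases, had 352, 74.8 and 86.2 CPM in flower buds and 0, 10.2 and 33.6 CPM in stem (3.33 ± 1.08, adjusted p = 0.0130). Flower buds 1 set much of this, since without it the flower bud mean was 80.5 CPM and the log2 fold change 2.08 (adjusted p = 0.108). Without stem 2 it was 3.11 (adjusted p = 0.0510) and without stem 3 it was 4.77. With entries summed the means were 232 and 22.4 CPM.

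Of 2 families that feed back on the small RNA machinery, 1 fell and 1 did not pass, against 29.6% lower among all tested families. Their median log2 fold change was -1.03. miR162, which targets DCL1, was lower in flower buds (3465, 1624 and 1938 against 4653, 8987 and 5735 CPM, -1.46 ± 0.53, adjusted p = 0.0220). Its call was lost without flower buds 2 or 3 or without stem 2 (adjusted p 0.0719 to 0.0936), and with the authors' factors or unchanged features its log2 fold change was -0.98. miR168, which targets AGO1, overlapped (15505 ± 4501 against 23516 ± 4992 CPM) and did not pass (-0.60 ± 0.42). Of 3 families listed as triggers of phased siRNAs from NB-LRR resistance genes and other loci, 1 was called lower and 2 did not pass (median 0.39). The shares over all tested families were 22.2% higher and 29.6% lower. miR482 (27600 ± 4585 against 21038 ± 6488 CPM) and miR5213 (2043 ± 206 against 1044 ± 298 CPM) did not pass, although miR5213 was higher in every flower bud library (0.97 ± 0.50, adjusted p = 0.109) and passed in 7 alternatives. miR2118 was called lower, but at 0 in flower buds and 16.3 to 18.4 CPM in stem it lay at the limit of detection, at least 1.09-fold lower (stem mean 17.1 CPM, or 29.6 CPM with entries summed), and its call was lost without flower buds 2 (adjusted p = 0.0566) or 3 (adjusted p = 0.0636).

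Of the 7 legume families, 1 was higher, 3 were lower (miR4414, given above, miR5232 and miR5559) and 3 did not pass, with a median log2 fold change of -0.79. The shares over all tested families were 22.2% higher and 29.6% lower. miR4415 was at 0 in stem and flower buds 1 and at 31.7 and 45.5 CPM in the other flower bud libraries, at least 1.96-fold higher, with its flower bud mean of 25.8 CPM falling to 15.9 CPM without flower buds 3. DESeq2 did not call it (adjusted p = 0.210). miR5232 fell, with 2453 ± 694 against 7015 ± 2313 CPM (-1.52 ± 0.36, adjusted p = 0.00135). miR5559 was called lower (495 ± 257 against 1867 ± 1483 CPM, -1.92 ± 0.77, adjusted p = 0.0397), yet its libraries overlapped. Its call was lost in 11 alternatives, including those without flower buds 2 or 3 or stem 2 or 3, and without flower buds 1 it was -2.51. miR1511 was lower in every flower bud library (9757 ± 1924 against 16841 ± 1011 CPM, or 15158 and 25714.5 CPM with entries summed), but its log2 fold change of -0.79 ± 0.33 was under 1 (adjusted p = 0.0480). Only without flower buds 1 did it pass (-1.07, adjusted p = 0.0316). miR1514 and miR2119 overlapped and did not pass.

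Further families outside these lists were called. miR530 was lower in flower buds (87.5 ± 19.1 against 1059 ± 460 CPM, -3.58 ± 0.79, adjusted p = 0.000757), nearly all of it mtr-MIR530-p5 (85.5 ± 18.8 against 1037 ± 439 CPM). With entries summed the family had 152 and 1820 CPM and the feature 149.8 and 1801 CPM. miR5204 stood at 0, 21.5 and 7.19 CPM in flower buds and at 141, 619 and 383 CPM in stem (-5.05 ± 1.06, adjusted p = 0.000506), and its log2 fold change was -6.07 without flower buds 2, -4.43 without flower buds 3 and -4.37 without stem 2. Its means of 9.58 and 381 CPM became 18.2 and 528 CPM with entries summed. miR4995 (37.1 ± 44.4 against 346 ± 308 CPM, -3.09 ± 0.91, adjusted p = 0.00626) lost its call without flower buds 2 (-2.66) or stem 3 (-1.99) and stood at -4.13 without flower buds 3. The fit of the 6 libraries alone did not call it either (-2.87, adjusted p = 0.0574), and its means were 56.2 and 488 CPM with entries summed. miR6173 (-1.85 ± 0.70, adjusted p = 0.0311) lost its call in 9 alternatives, including those without flower buds 1 or 2 or stem 2 or 3, and its flower bud mean of 100 CPM was 65.2 CPM without flower buds 3. With entries summed its means were 185 and 632 CPM.

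On the higher side, miR5211 measured 6986, 1451 and 1140 CPM in flower buds and 504, 637 and 324 CPM in stem (2.71 ± 0.60, adjusted p = 0.000751). All flower bud libraries were higher, but flower buds 1 stood well above the others, and without it the log2 fold change was 1.33 (adjusted p = 0.0179). miR7539 (484 ± 135 against 60.0 ± 39.8 CPM, 2.94 ± 0.75, adjusted p = 0.00216) and miR8176 (1107 ± 413 against 199 ± 130 CPM, 2.49 ± 0.67, adjusted p = 0.00318) did not overlap between the tissues. With entries summed miR8176 had 1998 and 340 CPM. The main miR7539 member, lja-MIR7539-p5_1ss8TA, had 309.9 ± 79.3 and 38.7 ± 21.1 CPM (2.93 ± 0.66, adjusted p = 0.00299), or 558 and 65.4 CPM with entries summed. miR391 (623 ± 92.1 against 128 ± 71.6 CPM, 2.26 ± 0.77, adjusted p = 0.0169) was also higher, but not without stem 1 (1.88, adjusted p = 0.0574). miR858, which targets R2R3-MYB genes of flavonoid synthesis in Arabidopsis, was at 61.8, 43.1 and 51.5 CPM in flower buds and 0 in stem, at least 3.98-fold higher.

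Reads at 5 or more in all 3 libraries of a tissue with 0 in the other were found for 19 features in flower buds and 15 in stem. Of the 19, 5 had no known family and each was listed above 0 in at least 1 other tissue. Of the 15, 10 had no known family and 3 were above 0 in stem alone among the 7 tissues. Of all 1464 features, 1070 had no family by name. Among the 10, lcum-miR-50031_212-3p has the seed ACCAGGC, as has gma-miR1511_R+1_1. The most abundant in flower buds was ath-miR167a-3p_L+1_2ss10TG11C-, at 608, 365 and 383 CPM, at least 34.5-fold higher. It was followed by lcum-miR-87385_85-5p (24 nt, no family, at least 11.4-fold), mtr-miR319c-5p_L-1R+1, lcum-miR-38268_318-5p (at least 10.9-fold), ath-miR160a-5p_L+2R-1 (at least 10.03-fold) and ath-miR169a-3p_L+2_1ss14CT (at least 7.83-fold). lcum-miR-38268_318-5p averaged 143 CPM, and 86.8 CPM without flower buds 1. ath-miR160a-5p_L+2R-1 averaged 131 CPM, and 239.5 CPM with entries summed.

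In stem the most abundant was lus-miR396b_R+1_1ss21TA, a 22 nt miR396 form at 41.0, 148 and 206 CPM, at least 8.39-fold lower in flower buds. Its stem mean of 132 CPM was 94.5 CPM without stem 3 and 225 CPM with entries summed, and DESeq2 did not call it (adjusted p = 0.122). It was followed by lcum-miR-53252_192-3p (at least 5.18-fold), the miR396 form gma-miR396a-5p_R+1 (at least 3.98-fold), lcum-miR-60522_157-5p (at least 3.92-fold), mtr-miR171g (at least 3.76-fold) and lcum-miR-50031_212-3p (at least 3.47-fold). Stem 2 set much of several means, which without it went from 81.3 to 54.5 CPM for lcum-miR-53252_192-3p (134 CPM with entries summed), from 61.5 to 35.04 CPM for lcum-miR-60522_157-5p and from 59.0 to 38.5 CPM for mtr-miR171g. The calls of the latter pair were lost with DESeq2 (adjusted p = 0.0711 and 0.0841). All bounds set the other tissue to 5 reads per library and cover neither counting error nor the spread between libraries. Among features above 0 in all 6 libraries, lcum-miR-5851_2620-3p, a 23 nt feature with no family, had the second largest increase, with 3997, 1959 and 2698 CPM in flower buds and 55.3, 56.2 and 10.3 CPM in stem (6.14 ± 1.14, adjusted p = 0.000572).

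**Figure D5:**
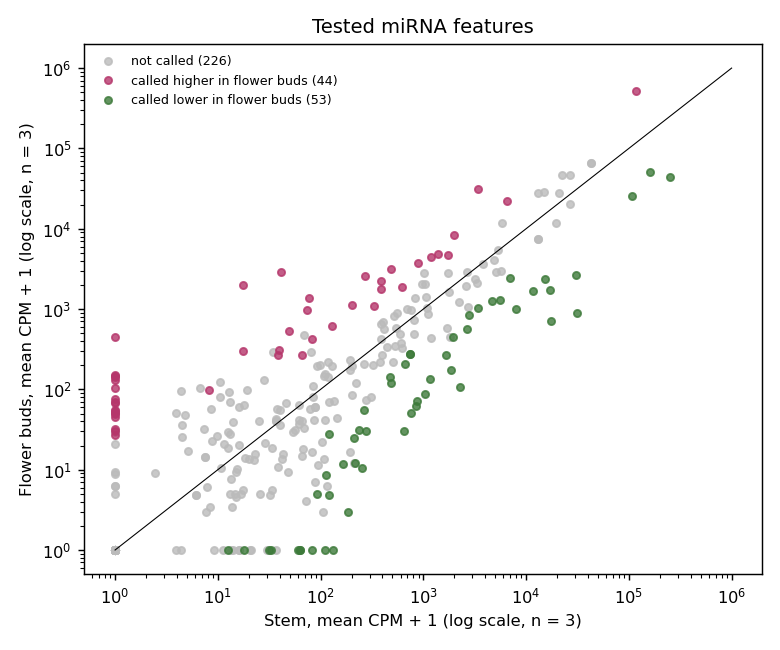
Mean CPM + 1 of the 323 tested features in stem (x axis) and flower buds (y axis), both on log scales with n = 3, coloured by call, with the line of equal levels. Called features lie on both sides over the whole range, and those on an axis are listed at 0 in 1 tissue.

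No length class passed its test. Features of 21 nt took 82.2% ± 4.8 of reads in flower buds and 75.3% ± 2.5 in stem, with overlap. Features of 20 nt took 3.73%, 6.10% and 4.65% in flower buds and 14.8%, 19.2% and 15.3% in stem, without overlap. In each library the leading 20 nt feature was gma-miR319f_1ss17TC, and without it the 20 nt share was 0.624% to 0.701% in flower buds and 2.90% to 3.81% in stem, still without overlap. Features of 22 nt took 14.2%, 5.97% and 5.55% in flower buds and 4.69%, 5.25% and 4.78% in stem. The high value of flower buds 1 went with mtr-miR398a-5p_L-1R+1_1ss8CA, which took 7.82% of its reads and 1.35% to 2.47% in the other 5 libraries. Without flower buds 1 the difference in the 22 nt share, 3.66 percentage points, was 0.855. The exact two-sided permutation p was 0.2 for 21 nt and 0.1, the smallest it can give, for 20 nt and 22 nt (adjusted 0.267, 0.16 and 0.16).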

How the data were processed

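Small RNA libraries were made with a TruSeq kit, per the labels. How reads were trimmed, aligned and assigned was not given in the sources used here. Per the file headers, the authors deposited raw and normalized columns. The raw columns are expected counts, shared in fractions among entries (25.8% of values above 0 were not whole, tolerance 0.01), and the normalized signal is the deposited raw column times 1 factor per library, used only as an alternative scaling. Of 1642 entries, those of 1 sequence were collapsed to the entry with the highest total, leaving 1464 features (another 7 lines are not reported). Counts were rounded to the nearest whole number, with ties going up. Families follow the number in the name. filterByExpr kept 323 features and 54 families.

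All 20 libraries were fitted with tissue as the only term by edgeR 4.0.16 (limma 3.58.1, R 4.3.3), with TMM scaling and the quasi-likelihood F-test, contrast flower buds minus stem. A call needed a Benjamini-Hochberg adjusted p under 0.05 and a log2 fold change of 1 or more in either direction. Errors are the SD of CPM or the standard error of a log2 fold change. A fold bound divides a mean by the mean of the other tissue's 5-read floors. Shares used exact permutation tests. Alternatives included DESeq2 1.42.0. Calculations were tested on simulated counts.

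The text names every called family, listed families, and features by rule: the 8 largest changes and 5 most abundant called features per direction, 6 listed in 1 tissue per direction, the 6 most abundant, and miR319 members of at least 100 CPM. mtr-miR396a-5p, mtr-miR396a-3p, gma-miR156b_L+1R-1, ath-miR156a-5p_L+1, csi-miR156i-5p, gma-miR171k-3p, mtr-MIR171b-p3_1ss20TC, ath-miR167d_1ss22GA, ath-miR167a-5p, ath-miR172a_1ss21TG, ath-miR172a, the miR4414, miR858, miR397 and miR2118 features, mtr-miR398a-5p_L-1R+1_1ss8CA, ath-miR398a-3p_L+1R-1 and the miR162 arms were added after their values were seen. Members and lists were chosen with earlier results of these data known.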

Additional observations from a re-analysis of the deposited data

How the results depend on the processing

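Of 1402 comparisons of a named miRNA or family with an alternative, over 81 results, 1305 kept their side of the threshold, 69 lost the call, 28 gained it and 0 reversed. The count of families lower in flower buds, 16 as reported, was 10 with the authors' factors, 10 with features lying unchanged in their precursor, and 10 with ties rounded to even, an alternative chosen after seeing the data. Leaving out 1 library gave 10 to 17, with 10 without stem 2 or flower buds 2. On average over the libraries, the scaling of the first 3 of these settings raised log2 differences by 0.43, 0.44 and 0.24. That of DESeq2's size factors, no filter and the 6 libraries alone raised them by 0.12, 0.17 and 0.17. The miR159 share difference of -17.9 percentage points was -15.8 with entries summed. Feature calls, 44 higher and 53 lower as reported, were 60 and 47 with the authors' factors, 56 and 40 with unchanged features, 53 and 42 without a filter, 55 and 42 with ties to even and 52 and 42 without stem 2. Families split 15 to 10 under the first pair of these settings, 14 to 11 with the 6 libraries alone, 14 to 10 with ties to even, and 12 to 10 without stem 2 or flower buds 2. Apart from these, the counts of calls stayed within 1.5 times. Same-numbered libraries deviated together with r of 0.228, 0.0835 and 0.112 over 323 features, so the numbers were not taken as pairs. Flower buds 2 correlated best with stem 3 (0.202). With the replicate number as a block, 49 features were higher and 43 lower, and 10 families higher and 12 lower. That fit did not call miR8176 (adjusted p = 0.0729), miR395, miR397 or miR858 (0.0883 each), lcum-miR-60522_157-5p (0.0505), mtr-miR171g (0.0507), or miR172, miR5559 and miR6173. Depth limits rare miRNAs: about 5 reads, the least a sequence is usually listed with, equalled 8.62 to 23.8 CPM.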
